A study of Mus musculus with 16 samples.

Results

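Long intergenic noncoding RNAs (lincRNAs) are transcripts from between protein-coding genes that are made and polyadenylated much as messenger RNAs are but are not known to encode long proteins. Many stay in the nucleus, where they hold together nuclear bodies, recruit chromatin or splicing proteins, or serve as precursors of small nucleolar RNAs and microRNAs. In most tissues they are less abundant than messenger RNAs, with exceptions such as *Malat1*, which resides at nuclear speckles, and *Neat1*, the scaffold of paraspeckles, both known from endothelial cells.

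The lincRNAs described here are the 133 genes that GENCODE mouse release 21 types as lincRNA, that lie on chromosomes 1 to 19, and that had at least 10 counts in each of the 16 RNA sequencing libraries. Genes starting in a stretch of chromosome 7 around *Apoe* were left out, although 0 of the 16 lincRNA rows there reached 10 counts in every library. The count table held 4441 lincRNA rows among 39057 rows in all, and 3088 of the lincRNA rows had no count in any library.

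The libraries came from primary cortical brain endothelial cells of targeted replacement mice, in which a human *APOE* allele is driven by the mouse promoter. The *APOE3* group held 8 cultures and the *APOE4* group 8, each from 4 male and 4 female animals aged 21 to 28 days, and the question was how *APOE* genotype shapes the transcriptome of these cells. Each culture came from the brain of 1 animal, all were purified with puromycin at 8 µg/ml, and none was treated further. Both groups carried a human allele throughout the body, and no group kept the mouse gene alone.

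Total counts were 14276942 to 16603076 in *APOE3* libraries and 12717847 to 18624417 in *APOE4* libraries, of which 28320 to 46860 fell on the 133 lincRNAs. The 16 brain endothelial markers examined summed to 19578 to 21016 CPM in *APOE3* and 19523 to 21730 CPM in *APOE4*. CPM is the count of a gene scaled by library size. With edgeR 1 of the 16, Emcn, was higher (log2 fold change 0.14, adjusted p = 0.0106) and 0 were lower, while their median log2 fold change was -0.04. DESeq2 called 4 of the 16 and limma 1, and 6 had an unadjusted p under 0.05 with edgeR. Pericyte and smooth muscle markers summed to 189 to 356 CPM in *APOE3* and 223 to 340 CPM in *APOE4*, fibroblast markers to 13.3 to 65.3 and 10.4 to 85.2 CPM, and astrocyte markers to 31.9 to 41.7 and 33.4 to 43.4 CPM. The tested markers of these 3 lists had median log2 fold changes of 0.19 (7 genes), 0.30 (4 genes) and 0.39 (2 genes). Of them 0 were called by edgeR, DESeq2 or limma, with an unadjusted p under 0.05 in edgeR for 1, 1 and 2, and their part in the results was not tested. Microglial, oligodendrocyte and neuronal markers each summed to at most 7.16 CPM in any library, and P2ry12, C1qa, Itgam, Olig1 and Olig2 were at 0 in all. A panel of 36 cell cycle genes moved with genotype, with 32 higher and 0 lower in *APOE4*. Of all genes tested, 6.71% were higher and 6.09% were lower. The panel had a mean log2 CPM of 5.57 ± 0.353 in *APOE3* against 6.16 ± 0.270 in *APOE4* (SD, n = 8 each). These are bulk libraries, so fewer cells of a type and less RNA per cell cannot be told apart.

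The lincRNAs took a small share of each library. Summed, they held 0.273% ± 0.0135 of all counts in *APOE3* (SD, n = 8, range 0.259 to 0.298) and 0.241% ± 0.0141 in *APOE4* (SD, n = 8, range 0.223 to 0.260). The ranges barely touched, but the genes were chosen on their counts, so this is a description with no test. *Malat1*, *Neat1* and Gm42418 together made up 58.1% ± 2.71 of these counts in *APOE3* and 53.7% ± 1.46 in *APOE4* (SD, n = 8 each). Without *Malat1*, which had the most counts, the shares were 0.195% and 0.174%.

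Per kilobase of exon, the median lincRNA was present at 1.70 CPM, with a range from 0.144 (6030443J06Rik) to 174 (Gm42418), against a median of 6.34 for the 11743 protein-coding genes tested. Their exons were shorter in total (median 2420 against 4612 bases) and slightly lower in GC content (median 47.7% against 49.8%), and 32 of 133, or 24.1%, had a single exon, against 2.56% of protein-coding genes. Levels also varied more between libraries of the same genotype, with a median SD of log2 CPM of 0.270 against 0.126. Just inside the threshold, Gm16907, Gm17354 and 6030443J06Rik had a smallest count of 10 and mean counts of 15.7, 16.4 and 17.2. Just outside it, Gm26669, Gm31410 and F730016J06Rik had a smallest count of 9 and mean counts of 27.5, 27.2 and 23.1.

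Gm42418, which overlaps a ribosomal RNA gene, had the highest level at 174 ± 71.4 CPM per kilobase (SD over the 16 libraries), followed by *Malat1* at 103 ± 14.6. After a gap came Tmem250-ps (35.6 ± 1.67) and Bvht (35.1 ± 3.44), the heart-lineage lincRNA Braveheart, which did not differ from each other beyond their spread. AW112010, an RNA known from activated immune cells, had 27.3 ± 6.22 CPM per kilobase, 1700020I14Rik had 26.9 ± 1.52 and *Neat1* had 19.4 ± 1.51. Libraries of AW112010 overlapped those of both 1700020I14Rik and *Neat1*. Gm10076 (15.8 ± 3.56), Gm38399 (15.6 ± 1.57) and Gm26532 (13.1 ± 3.5) completed the leading 10, within each other's spread.

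**Figure D1:**
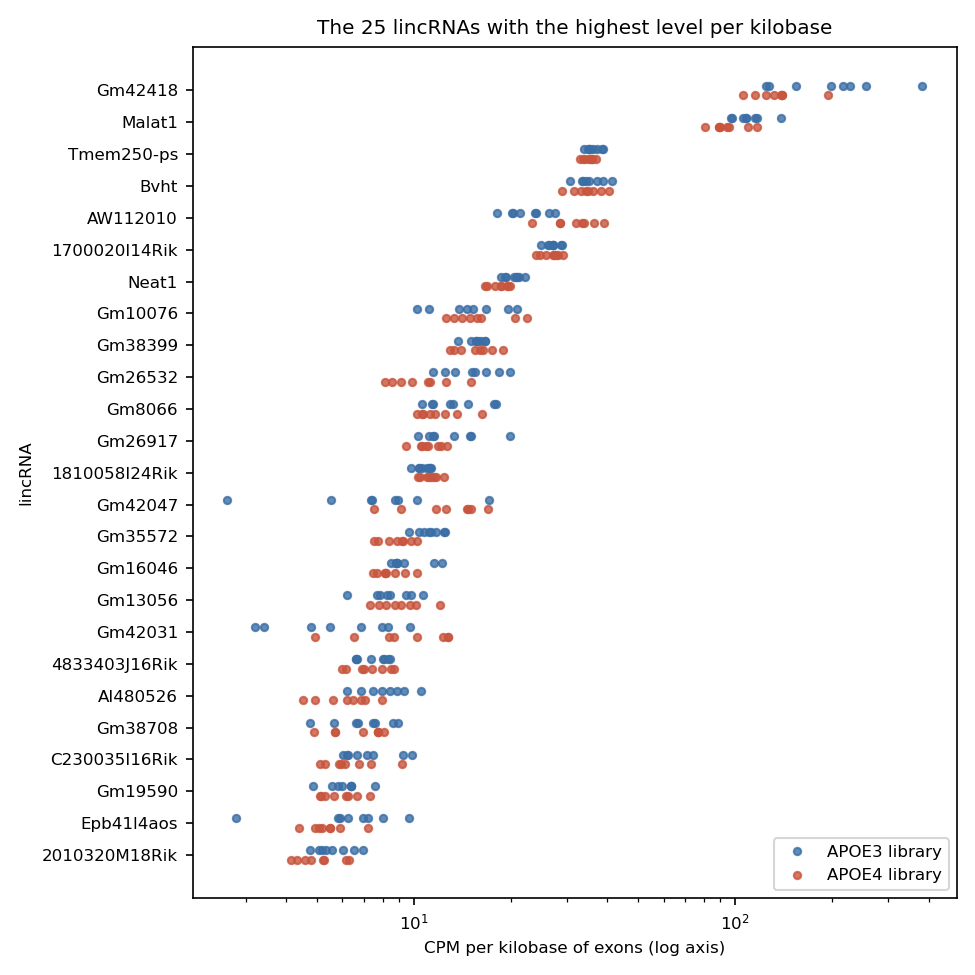
Level of the 25 lincRNAs with the highest mean, in CPM per kilobase of exons on a log axis, where each point is 1 library, blue for APOE3 and red for APOE4. Gm42418 (mean 174 CPM per kilobase) and Malat1 (103) stand above the others, and the genotypes overlap in each of the 25.

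To find which lincRNAs differed with *APOE* genotype, the counts of all 12481 genes that passed edgeR's filter on low values were fitted together with its quasi-likelihood test, and a gene was taken to differ at a Benjamini-Hochberg adjusted p under 0.05. All 133 lincRNAs passed that filter. Of these, 18 (13.5%) differed, against 12.8% of all genes tested and 13.5% of genes tested that had at least 10 counts in every library, so the share was near the background. In *APOE4* brain endothelial cells 7 were higher (5.26% of the lincRNAs, against 6.71% of all genes) and 11 were lower (8.27% against 6.09%). With DESeq2 the split was 7 higher and 16 lower, and with no filter on low counts 7 and 7. Over all genes DESeq2 called 1958 of 12481, and the fit without a filter called 1290 of 22474.

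The count depended on single libraries and on the cell cycle score. Of the 16 fits that left out 1 library, 7 lincRNAs passed in every one and 14 in at least 8. The count was 7 without *APOE3* replicate 30, 8 without *APOE4* replicate 41, and 23 without either *APOE3* replicate 31 or *APOE4* replicate 43. The calls over all genes moved the same way, from 1597 of 12481 in the main fit. They were 853 of 12531 without replicate 30 and 846 of 12546 without replicate 41. Without replicate 31 they were 2127 of 12573, and without replicate 43 they were 1854 of 12559. When the cell cycle score was added to the fit, edgeR called 0 lincRNAs and 0 of the 12481 genes, while 15 lincRNAs had an unadjusted p under 0.05. Genotype and this score moved together, so their parts in these differences cannot be told apart. Among 69 other lincRNAs that were tested but fell outside the rule, 3 differed (4.35%), and the largest difference was that of Gm26883, which fell by 0.99 on the log2 scale (adjusted p = 0.0177).

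In direction, 92 of the 133 lincRNAs (69.2%) had a log2 fold change below 0, against 50.1% of all genes. The median log2 fold change was -0.09 for the lincRNAs, -0.16 for the 69 other lincRNAs tested and -0.000219 for all genes. The standard errors were wider for lincRNAs (median 0.145 against 0.0657 for all genes), and the differences that passed were larger (median size 0.53 for the 18 lincRNAs against 0.26 for all genes called). In 0 of the 133 did every *APOE4* library lie beyond every *APOE3* library, as happened for 0.625% of all genes, and 1 lincRNA, AY036118, had a log2 fold change beyond 1 in size.

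**Figure D2:**
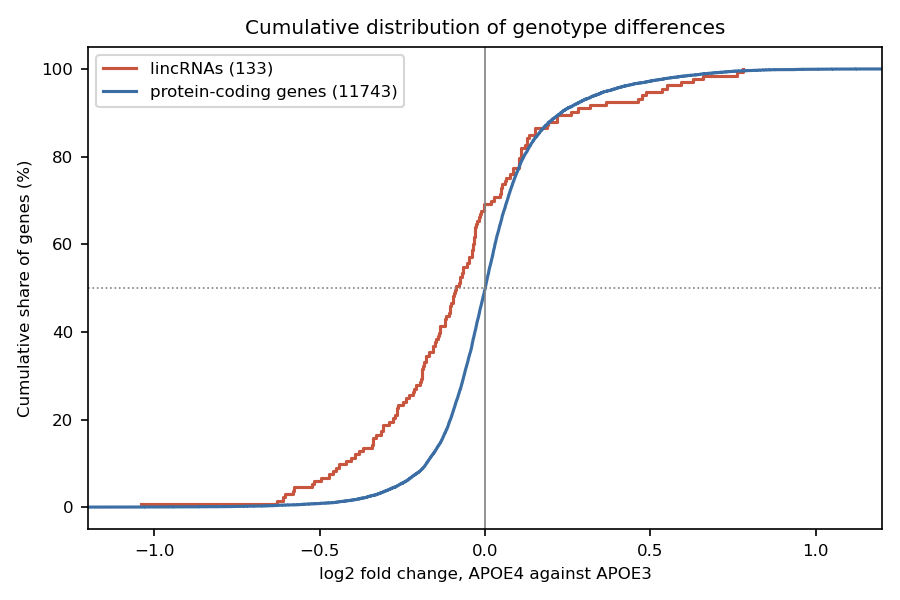
Cumulative share of genes (%) against the log2 fold change of APOE4 against APOE3, for the 133 lincRNAs (red) and the 11743 protein-coding genes tested (blue). The red curve runs above the blue one left of 0 and crosses 0 at 69.2%, and the curves meet on the positive side.

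Of the nuclear body RNAs, *Neat1* fell in *APOE4* brain endothelial cells and *Malat1* did not pass the test. Reads were counted per gene from poly-A selected RNA, so forms of these RNAs with and without a tail were not told apart. Forms without a tail may be missed in these libraries. *Neat1* (chromosome 19, 5824708 to 5845478, minus strand, GRCm38) ran from 387 to 461 CPM in *APOE3*, with a median of 428, and from 346 to 414 CPM in *APOE4*, with a median of 389. Each *APOE4* library lay under the median of *APOE3*, though the ranges overlapped, and the fall was small (log2 fold change -0.14, SE 0.0440, adjusted p = 0.0447). It held in 7 of the 16 fits that left out 1 library, with an adjusted p of up to 0.101. *Malat1* (chromosome 19, 5795690 to 5802672, minus strand) ran from 676 to 973 CPM in *APOE3*, with a median of 754, and from 564 to 816 CPM in *APOE4*, with a median of 643. Here 6 of 8 *APOE4* libraries lay under the *APOE3* median, and the difference (log2 fold change -0.22, SE 0.0753, adjusted p = 0.0637) did not pass, although it passed in 3 of 9 other settings.

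Outside the 133, Firre, an X-linked organiser of chromatin, was lower (log2 fold change -0.29, adjusted p = 0.00628). Gm26917, also in the list, had a log2 fold change of -0.27 and did not pass. Thus 0 of the 4 nuclear body RNAs tested were higher and 2 were lower with edgeR, where 12.8% of all genes were called. All 4 had an unadjusted p under 0.05 with edgeR, and DESeq2 and limma each called 3. Of 17 paraspeckle proteins, the partners of *Neat1*, 1 (Hnrnpa1, log2 fold change 0.23, adjusted p = 0.0110) was higher and 0 were lower. Their summed level spanned 2326 to 2488 CPM in *APOE3* and 2358 to 2633 CPM in *APOE4*.

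**Figure D3:**
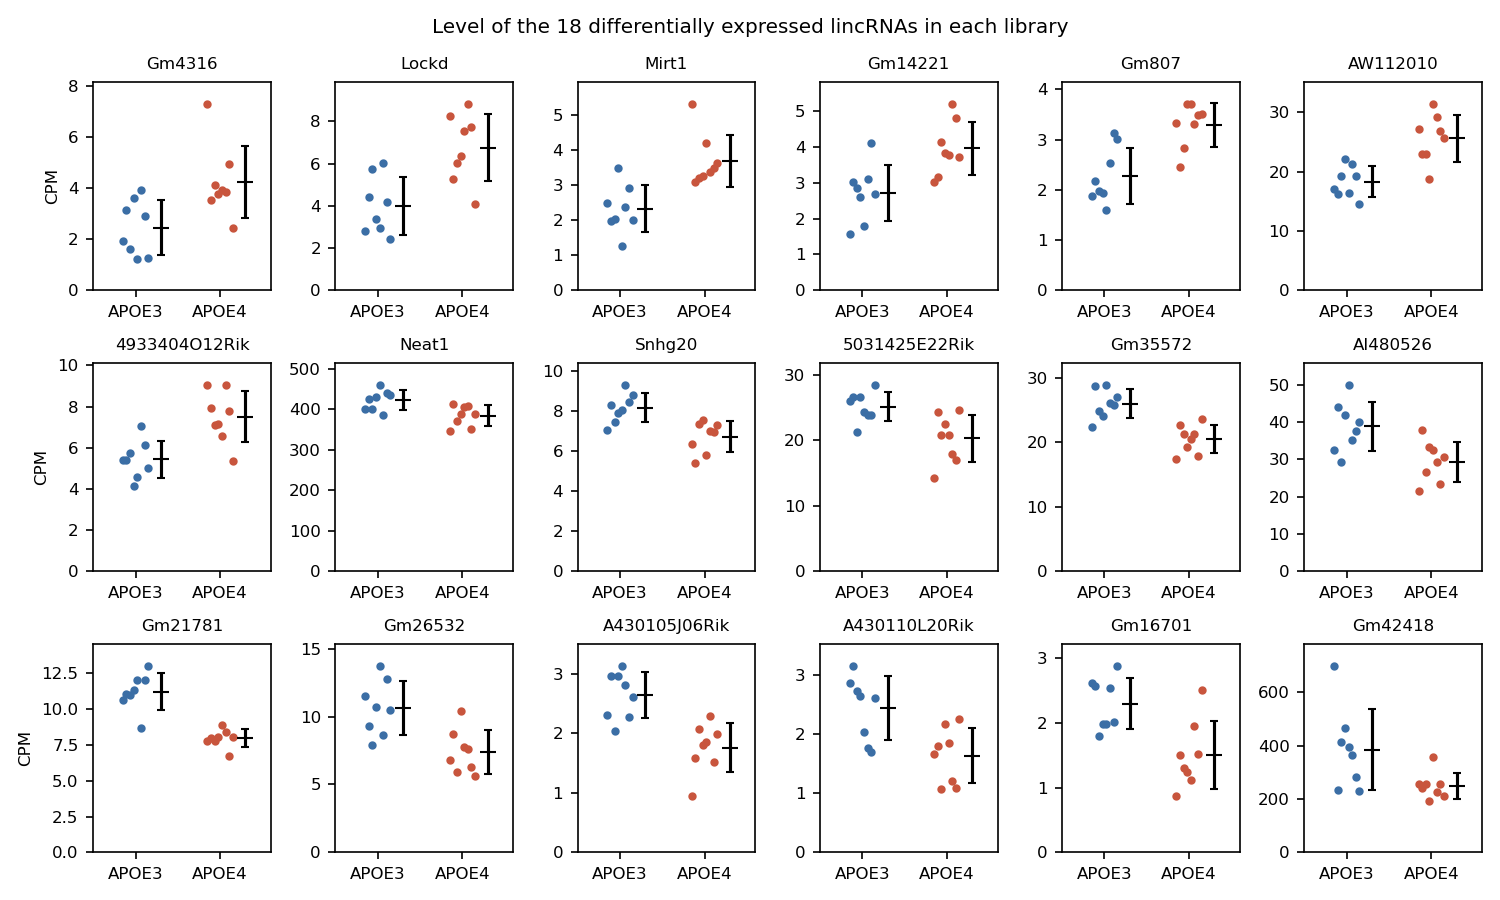
CPM of the 18 lincRNAs that differed between genotypes, with a linear axis from 0 for each gene, where each point is 1 library, the horizontal tick is the mean and the bar is 1 SD (n = 8 per genotype). The genotypes overlap for each gene, with 1 APOE3 library of Gm21781 inside the APOE4 range of 6.69 to 8.88 CPM, and Gm42418 spreads from 229 to 700 CPM in APOE3.

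Of the 7 lincRNAs that rose, AW112010 and Mirt1 are in the list of immune or interferon lincRNAs. In it 2 of 3 tested were higher and 0 were lower, where 12.8% of all genes were called. The other RNA of the list, Gm26917, had a log2 fold change of -0.27 and did not pass the test. AW112010 (chromosome 19, 11047612 to 11055808, minus strand), which is induced by microbial products in macrophages, ran from 14.6 to 22.1 CPM in *APOE3*, with a median of 18.2, and from 18.8 to 31.4 CPM in *APOE4*, with a median of 26.3. Each *APOE4* library exceeded the median of *APOE3*, and 1 of them, replicate 38 at 18.8 CPM, lay within the *APOE3* range. The rise (log2 fold change 0.49, SE 0.0980, adjusted p = 0.00703) held in all 16 fits with 1 library left out.

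Mirt1 (chromosome 19, 53443230 to 53464796, minus strand), named for its response to myocardial infarction, was low in both groups. It ran from 1.28 to 3.5 CPM in *APOE3*, with a median of 2.22, and from 3.10 to 5.32 CPM in *APOE4*, with a median of 3.43. Here again each *APOE4* library exceeded the median of *APOE3*, and *APOE4* replicate 35 was the highest of the 16. This rise (log2 fold change 0.66, SE 0.168, adjusted p = 0.0165) held in all 16 such fits.

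Lockd (chromosome 6, 134929092 to 134956798, plus strand) takes its name from its place downstream of Cdkn1b, the gene of the cell cycle inhibitor p27. It ran from 2.41 to 6.05 CPM in *APOE3*, with a median of 3.77, and from 4.10 to 8.83 CPM in *APOE4*, with a median of 6.95. Of the *APOE4* libraries, 5 lay above the *APOE3* range and replicates 36, 37 and 43 within it. The rise of 0.76 on the log2 scale (SE 0.186, adjusted p = 0.0138) held in all 16 fits with 1 library left out. Cdkn1b starts 8691 bases away and did not pass (log2 fold change -0.15, SE 0.0571, adjusted p = 0.0958). Adjusted for the cell cycle score, the log2 fold change of Lockd was 0.14.

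The promoters of Mirt1 and AW112010 are shown because both are in the immune list and rose, and that of Lockd because it rose and lies beside a cell cycle gene. Each run holds 250 bases before and 50 after the start that RefSeq gives (GRCm38.p6, 5′ to 3′ on the strand of the gene). Capitals mark matches to any of 9 motifs searched on both strands, and a match is a description, not a site. The Mirt1 promoter (chr19:53464747-53465046, minus strand) holds an AP-1 match at bases 111 to 117, as do 7.81% of the 32851 promoters in the table. The Lockd promoter (chr6:134928842-134929141, plus strand) holds a CCAAT box on the opposite strand at bases 38 to 42 and a cell cycle homology region at bases 56 to 61, found in 37.4% and 17.9% of all promoters. The AW112010 run (chr19:11050517-11050816, minus strand) starts inside the GENCODE gene and holds 0 matches to the letters searched.
Mirt1: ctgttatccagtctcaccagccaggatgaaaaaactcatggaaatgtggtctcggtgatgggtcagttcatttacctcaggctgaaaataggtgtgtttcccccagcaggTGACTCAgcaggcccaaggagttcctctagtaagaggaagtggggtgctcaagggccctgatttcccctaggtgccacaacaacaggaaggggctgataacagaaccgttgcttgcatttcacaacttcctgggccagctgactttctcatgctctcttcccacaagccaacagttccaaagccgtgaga
Lockd: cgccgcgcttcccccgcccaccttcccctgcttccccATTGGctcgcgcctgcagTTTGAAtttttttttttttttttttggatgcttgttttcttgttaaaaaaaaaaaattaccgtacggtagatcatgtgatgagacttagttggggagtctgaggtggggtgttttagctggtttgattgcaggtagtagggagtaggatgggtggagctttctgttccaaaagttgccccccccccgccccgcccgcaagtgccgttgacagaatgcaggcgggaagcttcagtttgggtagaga
AW112010: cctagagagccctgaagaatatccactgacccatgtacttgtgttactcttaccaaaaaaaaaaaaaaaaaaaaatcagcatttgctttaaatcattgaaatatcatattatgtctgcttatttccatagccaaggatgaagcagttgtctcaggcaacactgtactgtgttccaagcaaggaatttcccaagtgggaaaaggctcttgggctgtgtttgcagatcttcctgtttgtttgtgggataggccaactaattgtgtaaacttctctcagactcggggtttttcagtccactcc

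The cell cycle homology region was searched as TTTGAA, the CCAAT box by its own letters and AP-1 as TGANTCA. Also searched were the gamma-activated site TTCNNNGAA (in 8.30% of all promoters), the cAMP response element TGACGTCA (1.79%), the E2F forms TTTCCCGC and TTTGGCGC (1.56%), and the TATA box by the letters TATAAA (13.6%). The interferon-stimulated response element (3.44%) and the NF-kB motif (0.411%) completed the 9. The 2 matches in Lockd do not overlap. A RefSeq promoter was matched by symbol for 70 of the 133 lincRNAs and for 11 of the 18 that differed. Over the 85 promoters these have, AP-1 matches were in 5.88%, CCAAT boxes in 36.5% and cell cycle homology regions in 17.6%.

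The other 4 lincRNAs that rose have no role known with certainty, and 3 of them were low. Gm4316 (chromosome 8, 123165255 to 123178765, plus strand) ran from 1.21 to 3.94 CPM in *APOE3*, with a median of 2.43, and from 2.45 to 7.31 CPM in *APOE4*, with a median of 3.89. Its rise (log2 fold change 0.78, SE 0.242, adjusted p = 0.0392) was the largest of the 18 and held in 7 of 16 fits with 1 library left out. Replicate 35 of *APOE4* alone exceeded 5 CPM. Adjusted for the cell cycle score, the log2 fold change was -0.01. Gm14221 rose from 2.71 ± 0.791 to 3.95 ± 0.742 CPM (SD, n = 8 each, log2 fold change 0.55, adjusted p = 0.0358) and Gm807 from 2.28 ± 0.557 to 3.29 ± 0.439 CPM (0.54, adjusted p = 0.0222). Gm14221 lost its call without any 1 of *APOE3* replicates 25, 28, 30 and 33 or *APOE4* replicates 37, 40 and 41. Gm807 lost its call without *APOE3* replicate 30. 4933404O12Rik rose from 5.44 ± 0.898 to 7.5 ± 1.24 CPM (log2 fold change 0.46, adjusted p = 0.0154), and 1 *APOE4* library lay under the median of *APOE3*.

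Among the 11 that fell, Gm21781 and Gm35572 had the smallest adjusted p. Gm21781 (chromosome 10, 4391587 to 4396424, plus strand), a single-exon gene 3479 bases from the start of Zbtb2, ran from 8.66 to 13 CPM in *APOE3*, with a median of 11.2, and from 6.69 to 8.88 CPM in *APOE4*, with a median of 8.02. Only *APOE3* replicate 31, at 8.66 CPM, fell within the *APOE4* range. The fall (log2 fold change -0.50, SE 0.0793) had the smallest adjusted p of the 133, at 0.00423, and held in all 16 fits with 1 library left out. Zbtb2, which encodes a zinc finger protein, had a log2 fold change of 0.02 (adjusted p = 0.885).

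Gm35572 (chromosome 8, 71752026 to 71781322, minus strand) ran from 22.4 to 28.9 CPM in *APOE3*, with a median of 26.0, and from 17.4 to 23.6 CPM in *APOE4*, with a median of 20.9. It fell by 0.34 on the log2 scale (SE 0.0681, adjusted p = 0.00679). Gm26532 (chromosome 8, 84208920 to 84209609, plus strand) fell from 10.6 ± 2.00 to 7.39 ± 1.59 CPM (SD, n = 8 each, log2 fold change -0.52, adjusted p = 0.0148). Both held in all 16 such fits, and every *APOE4* library of each lay under the median of *APOE3*. A430110L20Rik fell from 2.44 ± 0.539 to 1.64 ± 0.469 CPM (log2 fold change -0.58, adjusted p = 0.0469) and held in 4 of them.

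Another 4 of the 11 share their arrangement: each starts within 1 kilobase of a protein-coding gene on the opposite strand and is transcribed away from it. AI480526 (chromosome 5, 123133723 to 123141666, minus strand) starts 527 bases from Setd1b, which encodes a histone H3 lysine methyltransferase. It ran from 29.4 to 49.9 CPM in *APOE3*, with a median of 38.7, and from 21.4 to 37.7 CPM in *APOE4*, with a median of 29.9. The *APOE4* libraries all lay under the median of *APOE3*, and AI480526 fell by 0.40 on the log2 scale (SE 0.111, adjusted p = 0.0232). Setd1b fell as well, by 0.17 on the log2 scale (SE 0.0413, adjusted p = 0.0131). Of the 50-base stretches of AI480526, 58.1% occur in another annotated transcript, on the same or the opposite strand. Some of its reads may be shared, which was not tested.

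5031425E22Rik (chromosome 5, 23382308 to 23434269, minus strand) starts 172 bases from Kmt2e, which encodes a chromatin regulator, and fell from 25.1 ± 2.24 to 20.3 ± 3.64 CPM (SD, n = 8 each, log2 fold change -0.31, adjusted p = 0.0345). A430105J06Rik (chromosome 1, 186749396 to 186752921, plus strand) starts 38 bases from Rrp15, a gene of ribosomal RNA processing, and fell from 2.64 ± 0.390 to 1.76 ± 0.410 CPM (log2 fold change -0.58, adjusted p = 0.0218). Gm16701 (chromosome 1, 166998295 to 167000841, minus strand) starts 576 bases from Fam78b and fell from 2.30 ± 0.396 to 1.51 ± 0.518 CPM (log2 fold change -0.61, adjusted p = 0.0377). In fits with 1 library left out, AI480526 and A430105J06Rik held in 14 of 16, 5031425E22Rik in 8 and Gm16701 in 7. The neighbours of the last 3 did not pass the test, with log2 fold changes of -0.13 for Kmt2e (adjusted p = 0.0871), -0.10 for Rrp15 (adjusted p = 0.475) and -0.21 for Fam78b (adjusted p = 0.354).

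Such divergent starts are common among these lincRNAs, since 25 of the 133 start within 1 kilobase of a divergent protein-coding neighbour and 43 start within 5 kilobases of any. The nearest protein-coding gene was tested for 108 lincRNAs, and 66 of these pairs had log2 fold changes of the same sign. For the divergent pairs this was 17 of 24, and in 1 of them, AI480526 and Setd1b, both genes passed the test. Of the 106 different neighbours tested, 17 differed between genotypes (16%, against 12.8% of all genes). Among the 18 lincRNAs that differed, 15 had a tested neighbour and 1 of these neighbours differed. The neighbours not yet named, Sult5a1, Dusp5, Wdr26, Top1, Zfp366, Ift22, Fcho1, Sec14l1 and Frmd8, did not pass, with log2 fold changes from -0.19 for Sult5a1 (adjusted p = 0.0877) to 0.32 for Fcho1 (adjusted p = 0.217). Levels of both genes of a pair were measured in the same libraries, and genes are not replicates, so no test is given.

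**Figure D4:**
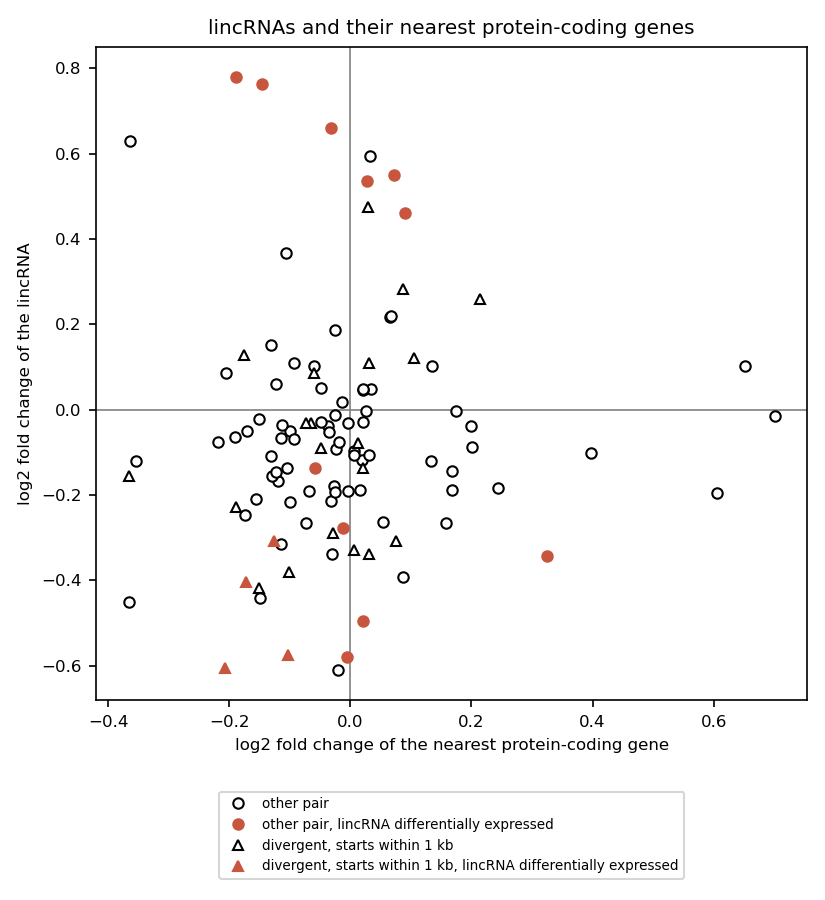
Log2 fold change (APOE4 against APOE3) of each lincRNA on the vertical axis and of its nearest protein-coding gene on the horizontal axis, for the 108 pairs tested. Triangles are divergent pairs with starts within 1 kilobase, circles are other pairs, and filled red symbols are lincRNAs that differed between genotypes. The 4 filled triangles sit in the lower left, and the filled circles are spread over both sides of the vertical line at 0.

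The lincRNAs 1700020I14Rik and Trp53cor1 lie beside genes that differed, and did not pass the test themselves. 1700020I14Rik, among the most abundant, had 225 ± 11.1 CPM in *APOE3* and 222 ± 14.7 CPM in *APOE4* (SD, n = 8 each, log2 fold change -0.02, SE 0.0415, adjusted p = 0.847), and it starts 24001 bases from Nusap1, a mitotic spindle gene with a log2 fold change of 0.70 (adjusted p = 0.00817). Trp53cor1, known as lincRNA-p21 and induced by p53, had 2.58 ± 0.397 CPM in *APOE3* and 2.47 ± 0.407 CPM in *APOE4* (log2 fold change -0.07, SE 0.136, adjusted p = 0.797). Its neighbour Cdkn1a, which encodes p21, fell by 0.11 on the log2 scale (adjusted p = 0.0262). Pvt1 did not pass either, nor did its neighbour Myc (log2 fold change -0.03, adjusted p = 0.820). Pvt1 ran from 0.867 to 1.77 CPM in *APOE3* and from 1.2 to 2.10 CPM in *APOE4* (log2 fold change 0.19, SE 0.162, adjusted p = 0.475). Bvht, whose nearest protein-coding gene Il17b was not tested, had 24.9 ± 2.37 CPM in *APOE3* and 24.2 ± 2.56 CPM in *APOE4* (log2 fold change -0.04, SE 0.0689, adjusted p = 0.761).

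The small nucleolar RNA hosts carry small guide RNAs in their introns, many but not all of them guides of ribosomal RNA modification. Snhg20 (chromosome 11, 117076008 to 117078955, plus strand) ran from 7.05 to 9.29 CPM in *APOE3*, with a median of 8.16, and from 5.40 to 7.55 CPM in *APOE4*, with a median of 6.99. Every *APOE4* library was under the median of *APOE3*, and the fall (log2 fold change -0.28, SE 0.0836, adjusted p = 0.0345) held in 8 of 16 fits with 1 library left out. Snhg12 (log2 fold change -0.20, SE 0.0996, adjusted p = 0.201), Epb41l4aos (-0.26, SE 0.180, adjusted p = 0.351) and Snhg6 (-0.03, SE 0.118, adjusted p = 0.886) did not pass. Over the 14 such hosts tested of any gene type, 0 were higher and 2 were lower, where 12.8% of all genes were called. The other lower host was Snhg17 (log2 fold change -0.18, adjusted p = 0.0255). Of 16 proteins of small nucleolar ribonucleoproteins, edgeR, DESeq2 and limma each called 0, and 3 had an unadjusted p under 0.05 with edgeR.

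Of the 133 lincRNAs, 6 contain 23 mature microRNAs on their own strand, and those other than Mir17hg and Snhg20 were named after their values were seen. Mature microRNAs are too short and lack the tail for these poly-A libraries, so only the host transcripts were measured. Mir17hg, the host of the oncogenic miR-17 to miR-92 cluster, ran from 2.41 to 4.21 CPM in *APOE3*, with a median of 2.78, and from 2.22 to 3.84 CPM in *APOE4*, with a median of 2.53. The ranges overlapped almost fully and the difference did not pass (log2 fold change -0.18, SE 0.143, adjusted p = 0.440). 6720427I07Rik, a let-7 host, came to -0.37 (SE 0.199, adjusted p = 0.226) on the same scale. E130102H24Rik, with miR-101a, came to -0.45 (SE 0.175, adjusted p = 0.0915). Gm37233 and 2900076A07Rik did not pass either, and not all hosts were lower. Gm37233, with miR-5103, ran from 1.47 to 3.38 CPM in *APOE3* and from 1.65 to 4.85 CPM in *APOE4*. 2900076A07Rik, with miR-1839-5p, ran from 0.986 to 4.47 CPM in *APOE3* and from 1.99 to 3.65 CPM in *APOE4*.

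The main mature sequences of Mir17hg, 6720427I07Rik, E130102H24Rik and Snhg20 are shown, from RefSeq (GRCm38.p6). A microRNA finds its target messenger RNAs mainly through its seed, bases 2 to 8, here in capitals. Mir17hg carries 11 mature sequences, among which miR-17-5p and miR-20a-5p share the seed AAAGUGC and miR-19a-3p and miR-19b-3p share GUGCAAA, while the let-7 members in 6720427I07Rik share GAGGUAG. Snhg20, the only host of the 6 that differed between genotypes, carries both arms of miR-6516.
miR-17-5p: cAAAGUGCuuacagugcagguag
miR-20a-5p: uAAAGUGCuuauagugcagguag
miR-18a-5p: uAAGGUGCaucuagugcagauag
miR-19a-3p: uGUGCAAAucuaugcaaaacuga
miR-19b-3p: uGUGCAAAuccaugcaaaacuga
miR-92a-3p: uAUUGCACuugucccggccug
let-7a-5p: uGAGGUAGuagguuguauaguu
let-7d-5p: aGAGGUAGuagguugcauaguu
let-7f-5p: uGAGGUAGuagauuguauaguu
miR-101a-3p: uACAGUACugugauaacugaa
miR-6516-5p: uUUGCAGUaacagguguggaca
miR-6516-3p: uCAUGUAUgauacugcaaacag

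A cluster on chromosome 17 at 39843013 to 39848788 gave the highest level per kilobase, that of Gm42418, and the largest log2 fold change in size, that of AY036118. Gm42418 (39846958 to 39848788, plus strand) overlaps the ribosomal RNA gene Rn18s-rs5 in 1245 of its 1831 bases, AY036118 (39847113 to 39848035, minus strand) does so in all 923 of its bases on the other strand, and Gm26917 (39843013 to 39846341, plus strand) lies beside it. Of their 50-base stretches, 94.9% for Gm42418, 100% for AY036118 and 0% for Gm26917 occur in another annotated transcript, on either strand. The first pair lie on opposite strands, and AY036118 had 10 to 122 counts a library where Gm42418 had 3133 to 11213. Whether some of their reads were shared was not tested. Ribosomal RNA has no poly-A tail, and how much of it remained in each library was not measured otherwise.

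Gm42418 ran from 229 to 700 CPM in *APOE3*, with a median of 381, and from 194 to 357 CPM in *APOE4*, with a median of 248. The *APOE4* libraries all lay under the median of *APOE3*, and *APOE3* replicate 25 alone reached 700 CPM. The fall (log2 fold change -0.63, SE 0.183, adjusted p = 0.0300) held in 10 of 16 fits with 1 library left out, with an adjusted p of up to 0.0585. AY036118 ran from 0.804 to 7.61 CPM in *APOE3* and from 0.662 to 2.01 CPM in *APOE4*, and its difference (log2 fold change -1.04, SE 0.364, adjusted p = 0.0635) did not pass. Gm26917 ran from 34.4 to 66.3 CPM in *APOE3* and from 31.5 to 42.3 CPM in *APOE4* (log2 fold change -0.27, SE 0.107, adjusted p = 0.0948).

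**Figure D5:**
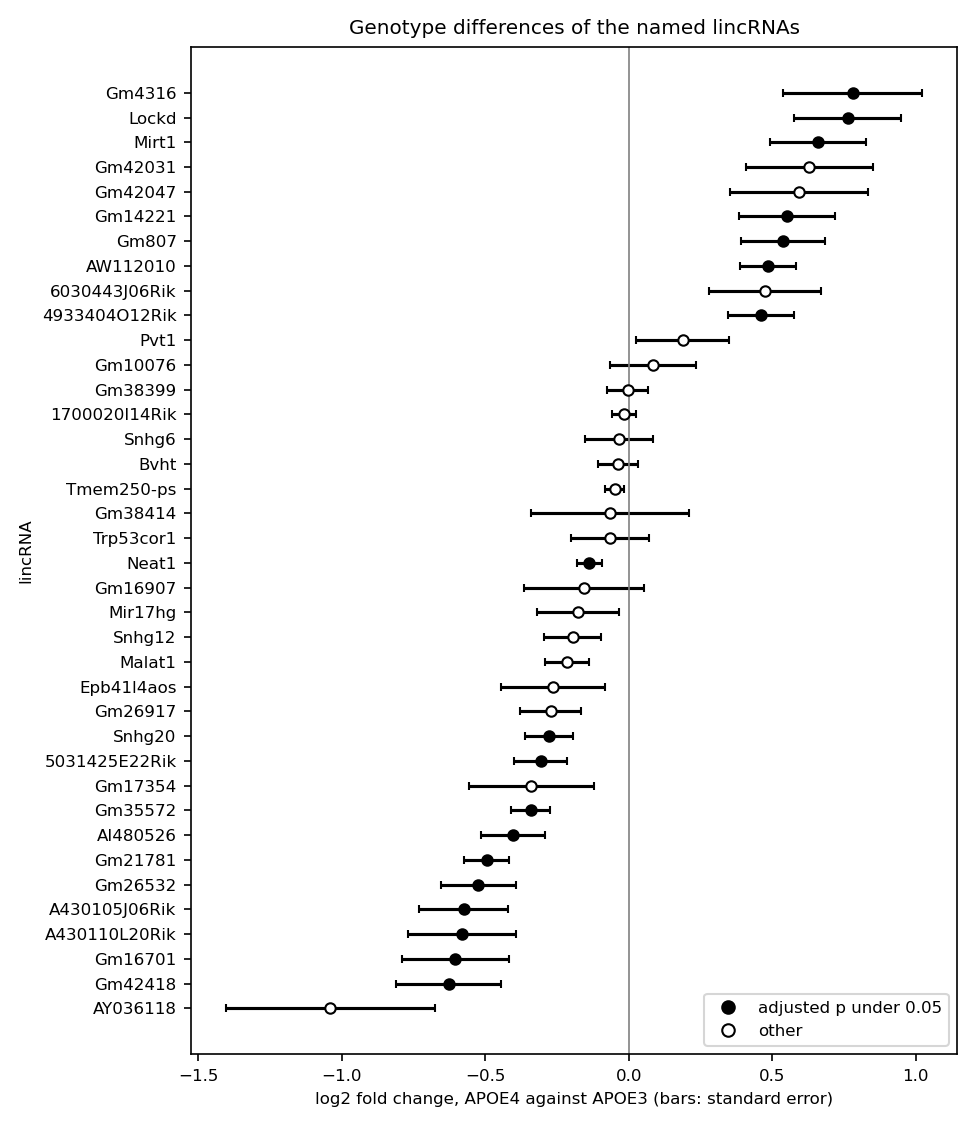
Log2 fold change of APOE4 against APOE3 for the 38 named lincRNAs, with bars of 1 standard error, filled where the adjusted p is under 0.05. The 18 filled points lie on both sides of 0, 7 above and 11 below, and AY036118 at -1.04 has the largest difference and the widest bar.

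Some lincRNAs varied widely between animals. After AY036118, the SD of log2 CPM within genotypes was largest for Gm42047 (0.616), Gm38414 (0.556), Gm4316 (0.548) and Gm42031 (0.544). Gm42047 ran from 14.9 to 97.0 CPM in *APOE3* and from 42.4 to 95.9 CPM in *APOE4* (log2 fold change 0.59, SE 0.241, adjusted p = 0.108). Gm42031 ran from 6.03 to 18.3 CPM in *APOE3* and from 9.26 to 24.1 CPM in *APOE4* (log2 fold change 0.63, SE 0.222, adjusted p = 0.0652). In 64.8% and 59.0% of their 50-base stretches these match other transcripts, as do over 50% in 12 of the 133 lincRNAs. At the other end, Tmem250-ps had the smallest spread (0.0644) and a difference of -0.05 on the log2 scale (SE 0.0346, adjusted p = 0.364).

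The sexes were also compared. Between female and male cultures edgeR called 0 of the 133 lincRNAs, against 0.0721% of all genes tested, with 8 lincRNAs at an unadjusted p under 0.05 and 0 called by DESeq2. Within males alone, with 4 libraries a genotype, 0 lincRNAs and 0 genes of any kind differed between genotypes, with 27 lincRNAs at an unadjusted p under 0.05, and within females the numbers were 0, 0 and 21. The difference of the genotype effect between the sexes passed for 0 (3 at an unadjusted p under 0.05, namely Epb41l4aos, E130102H24Rik and Gm16973). The log2 fold changes had the same sign in males and females for 94 of the 133 lincRNAs.

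Of 5 groups of proteins that act on or with noncoding RNAs, Polycomb repressive complex 2, which methylates histone H3, had the most genes that differed, 5 of 11, where 12.8% of all genes were called. Of the 11, 2 were higher, namely its catalytic subunit Ezh2 (log2 fold change 0.33, adjusted p = 0.0363) and Phf19 (0.49, adjusted p = 0.0352), and 3 were lower, namely the alternative catalytic subunit Ezh1 (-0.22, adjusted p = 0.00928), Phf1 (-0.24, adjusted p = 0.0138) and Jarid2 (-0.13, adjusted p = 0.0433). These calls stood beside the higher cell cycle panel, and 0 of the 12481 genes, these 5 included, were called by edgeR with the cell cycle score in the fit. Of 13 microRNA processing genes tested, 0 were higher and 2 were lower, Ago1 (-0.12, adjusted p = 0.0380) and Tnrc6b (-0.15, adjusted p = 0.0402), both of the silencing complex. Of 14 nonsense-mediated decay genes, edgeR, DESeq2 and limma each called 0, and 1 had an unadjusted p under 0.05 with edgeR. In the lists of imprinted, vascular and developmental noncoding RNAs, 1 of 3 (Peg13, log2 fold change -0.17, adjusted p = 0.0359), 0 of 6 and 0 of 2 tested RNAs differed with edgeR, with 2 and 0 at an unadjusted p under 0.05 and 1 and 0 called by DESeq2.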

How the data were processed

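RNA was measured in 16 libraries, 8 per genotype, prepared from poly-A selected RNA and deposited as 1 table. The authors deposited raw read counts per gene, without normalization. The submitters' processing notes name STAR, featureCounts and the builds mm10 and hg38. Their versions, the annotation release and the strand setting of counting are not given in the sources used here, so reads of genes that overlap on opposite strands may not be told apart. Every column matched 1 sample title, and 0 columns were left without a sample. Separate libraries are separate animals, and 0 pairs of libraries were identical. Reads carry no molecular identifiers and went through 17 cycles of PCR, so depth covers counting error only.

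Gene types, exons and neighbours were taken from GENCODE mouse release 21 by identifier without its version, and 185 rows, human *APOE* among them, had no entry there. Genotypes were compared with edgeR 4.0.16 in R 4.3.3 (filterByExpr by genotype, TMM normalization, quasi-likelihood F test, genotype as the one term) and Benjamini-Hochberg adjustment over the 12481 genes tested. Standard errors are the log2 fold change divided by the square root of F. CPM uses the TMM library sizes, and log2 CPM a prior count of 2. Level per kilobase divides CPM by the length of the union of exons. A neighbour is the protein-coding gene with the nearest start. Shared sequence is the share of 50-base stretches of a gene's exons found in a transcript of another gene, on either strand. Sequences came from RefSeq tables (GRCm38.p6). The pipeline was tested on simulated counts. Tables and figures used Python 3.11.15, pandas 2.3.3 and matplotlib 3.10.9.

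The 38 named lincRNAs are those that differed between genotypes, members of 8 role lists, the 10 highest per kilobase, the 3 with the lowest smallest count and the 5 with the largest SD of log2 CPM. The lincRNAs, the lists and the tests were chosen with earlier results of these data known. E130102H24Rik, 6720427I07Rik, Gm37233, 2900076A07Rik and Gm16973 were named after their values were seen. Alternatives were RLE size factors, no filter, at least 10 counts in every library, sex, 1 surrogate variable (sva 3.50.0) or the cell cycle score as a covariate, splines with 5 degrees of freedom for GC content and length, DESeq2 1.42.0, voom of limma 3.58.1 with quality weights, each library left out, and other rules for the members.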

Additional observations from a re-analysis of the deposited data

Results flagged for a closer look

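Of 76 groups of 8 libraries, 1 for each named lincRNA and genotype, 4 held a highest or lowest library set apart from the nearest other by more of the group's range than Dixon's critical value for 8 samples. Chance gives about 1 such group in 20, and 4 of 76 is close to that rate. In *APOE4*, replicate 39 had 357 CPM of Gm42418 where the next library had 256, and replicate 40 had 3.84 CPM of Mir17hg where the next had 2.66. In *APOE3*, replicate 27 had 0.867 CPM of Pvt1, under the next lowest at 1.47, and replicate 32 had 973 CPM of *Malat1*, above the next at 817.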

How the results depend on the processing

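The number of lincRNAs that differed between genotypes (18) was 14 to 23 with other normalizations, filters, tests and covariates, except that it fell to 0 when the cell cycle score was added, where 15 had an unadjusted p under 0.05 with edgeR and 0 of all 12481 genes were called. Leaving out 1 library gave 7 (without *APOE3* replicate 30) to 23, with 8 without *APOE4* replicate 41. Of all genes tested, 846 to 2127 were called in these fits. Among named lincRNAs, 11 and 10 lost their call without replicate 30 and replicate 41. Of the 83 lincRNAs that overlap no exon of another gene, 10 differed, and of the 90 with at least 20 counts everywhere, 14 did. Of all genes tested, 12.8% were called. The split of higher and lower was 7 and 11, with 7 and 16 for DESeq2, 7 and 7 without a filter, and 5 and 5 without overlapping genes. The shares of counts without *Malat1* were 0.195% in *APOE3* and 0.174% in *APOE4*. The log2 fold change of Gm4316 turned to -0.0148 with that score. Falls shrank too, to -0.058 for AI480526, -0.044 for 5031425E22Rik and -0.0049 for *Neat1*, while those of Gm42418 (-0.78) and Snhg20 (-0.30) grew. *Neat1* lost its call with the correction for GC content and length, the cell cycle score and no filter, and *Malat1* gained one with DESeq2, voom and that correction. The cause of these shifts was not tested. The median log2 fold change of the lincRNAs stayed between -0.12 and -0.05 under the other normalizations, filters, tests and covariates and with 1 library left out, and was not computed for other rules for the members. The count between sexes was 0 in the alternatives run for it, namely DESeq2, RLE size factors, no filter and each library left out. With a median of 54.6 counts a library, lincRNAs had a median standard error of 0.145 on the log2 scale, and the difference that could be called depended on the error of each gene. No paired analysis was possible because the genotypes share no replicate numbers.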
